A study of Mus musculus with 12 samples.

Results

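The genes of the major histocompatibility complex (MHC) and of antigen processing were followed in liver RNA of 12 C57BL/6 mice. All 12 mice had been made obese with a high-fat diet and had fatty livers (steatosis) before treatment, so the control livers are fatty livers and not those of lean mice. For 6 weeks, 6 mice then carried a scaffold alone under the skin (control) and the other 6 carried a scaffold with 4-hydroxyphenylacetic acid (4-HPAA), a phenolic compound known as a microbial product of polyphenols. Livers were flushed with saline and frozen, and their messenger RNA was sequenced. The sources used here give no age, sex or dose. Replicates are numbered 1 to 6 in each group, and since nothing further ties a number to a separate animal, the p-values describe the variation between samples, which may be partly technical. The study compares 4-HPAA with control livers, and the question for these genes is how both routes of antigen presentation lay in that comparison.

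The 10 genes were chosen by name, as rows of the deposited table whose transcript ID belongs to the gene. They are 10 of 13267 genes in the table. The 6 genes of the class I route are H2-K1, H2-D1, B2m, Tap1, Psmb8 and Psmb9, and the 4 of the class II route are H2-Aa, H2-Ab1, H2-Eb1 and Cd74. All 10 were in the table, and all 10 passed the limit for testing, a value of 10 or more in 6 or more libraries. The values are the authors' read counts, scaled by a factor for each library and rounded, and are called scaled read counts below.

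MHC molecules carry peptides to the cell surface, where T cells read them. Class I molecules sit on nearly all nucleated cells, hepatocytes included, and present peptides cut from proteins of the cytosol. Class II molecules are made mainly by dendritic cells, macrophages and B cells and present peptides from proteins that were taken up. The liver holds all of these cells, with Kupffer cells as its resident macrophages.

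The scaled read counts summed to between 22869813 and 25255447 per library. Albumin, the main product of hepatocytes, lay between 1258013 and 2091337 in every library. On the second principal component of all genes, 4-HPAA replicate 3 lay at −56.45, apart from the other 11 libraries at −7.52 to 17.03. The first component (31.5% of the variance) ran from 4-HPAA replicates 1, 2 and 5 (37.8, 31.1 and 28.6) to control replicates 4 and 5 (−31.5 and −29.3), with the other 7 libraries between −21.5 and 12.2. Of 12720 genes tested with limma, 0 (0%) passed a Benjamini-Hochberg adjusted p of 0.05, while 1886 had an unadjusted p under 0.05.

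Textbook motifs of each class were searched in the promoters, and 7 stretches that hold matches are printed. RefSeq windows (GRCm38.p6) were matched for 8 of the 10 genes. The letters searched, on both strands and in the 250 bases before the start site, were CCAAT (the Y box, ATTGG on the other strand), CTNGNAACT (the core of the X box), TGACG (the core of a cyclic AMP response element), GGGATTCC (a kappa B-like site) and AANNGAAA (the core of an interferon-stimulated element). TGACG can overlap its own reverse, as in TGACGTCA. These letters were chosen after the sequences were seen. Capitals mark every match within the printed stretch. No match was listed for Psmb8, H2-Ab1 or Cd74. H2-Ab1 had no window, and Cd74 was left out of the search. Whether Psmb8 had a window was not recorded, so the missing match does not show that its promoter lacks these motifs.

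The class II genes H2-Aa (chr17:34287854-34287933, minus strand) and H2-Eb1 (chr17:34305757-34305836, plus strand) are shown with H2-DMb1 (chr17:34153081-34153160, plus strand), a gene of class II peptide loading. Each stretch covers positions −110 to −31 from the start site.
H2-Aa: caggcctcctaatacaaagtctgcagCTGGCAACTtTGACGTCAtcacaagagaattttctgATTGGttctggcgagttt
H2-Eb1: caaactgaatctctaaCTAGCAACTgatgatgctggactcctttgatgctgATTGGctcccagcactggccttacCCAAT
H2-DMb1: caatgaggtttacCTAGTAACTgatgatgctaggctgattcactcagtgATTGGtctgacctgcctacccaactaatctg
All 3 held an X box core followed by a Y box. The X box core began at position −84 in H2-Aa, −94 in H2-Eb1 and −97 in H2-DMb1, and the Y box at −48, −59 and −61. H2-Aa also held an interferon element core at −213, outside the printed stretch. Over all 32851 RefSeq windows, the X box core was found in 3.47% and CCAAT in 33.8%.

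The class I genes H2-K1 (chr17:34000348-34000467, minus strand, positions −120 to −1), H2-D1 (chr17:35262914-35263049, plus strand, −180 to −45) and B2m (chr2:122147542-122147642, plus strand) are shown next.
H2-K1: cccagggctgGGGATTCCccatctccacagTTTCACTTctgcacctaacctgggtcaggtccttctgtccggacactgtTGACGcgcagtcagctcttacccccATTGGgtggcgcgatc
H2-D1: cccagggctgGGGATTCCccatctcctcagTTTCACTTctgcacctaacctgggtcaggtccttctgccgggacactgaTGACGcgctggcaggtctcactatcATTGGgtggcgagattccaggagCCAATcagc
B2m: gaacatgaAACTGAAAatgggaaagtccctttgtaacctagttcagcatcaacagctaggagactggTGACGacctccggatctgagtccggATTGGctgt
H2-K1 and H2-D1 held the same motifs in the same order: the kappa B-like site, the interferon element core, TGACG and the Y box. B2m held the last 3 of these in that order. The kappa B-like site was found in 0.889% of all windows, the interferon element core in 21.3% and TGACG in 17.8%.

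Tap1 and Psmb9 are read in opposite directions from RefSeq start sites 226 bases apart. The whole stretch between these sites (chr17:34187331-34187555, plus strand) is shown because both genes share it. In GENCODE M21, Tap1 and Psmb9 overlap by 212 bases, and this stretch lies within the Psmb9 gene.
Tap1 and Psmb9: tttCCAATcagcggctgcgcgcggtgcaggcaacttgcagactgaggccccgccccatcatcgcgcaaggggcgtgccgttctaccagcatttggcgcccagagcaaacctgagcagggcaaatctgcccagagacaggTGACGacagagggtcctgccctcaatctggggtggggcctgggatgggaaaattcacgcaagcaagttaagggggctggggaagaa
It held 1 CCAAT and 1 TGACG. A match here describes letters only.

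By level per kilobase of the longest coding transcript, the class I structural chains stood far above the rest in control livers. B2m, the light chain that pairs with every class I heavy chain, averaged 42327 scaled read counts per kilobase. The heavy chains H2-K1 and H2-D1 averaged 20800 and 5924 per kilobase. The other 7 genes lay between 242 (Tap1) and 744 (Cd74) per kilobase. Class I heavy chain genes are close copies, so the authors' counting could divide reads between H2-K1, H2-D1 and the H2-Q genes, and the level of each is uncertain.

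Class II genes were the variable ones, and their averages were lower in 4-HPAA livers without passing a test. The class II molecule I-A joins an alpha chain, from H2-Aa, with a beta chain, from H2-Ab1. H2-Aa had a lowest value of 394, a median of 518.5 and a highest of 1038 scaled read counts in controls, and 204, 424.5 and 701 with 4-HPAA. The groups overlapped: 4-HPAA replicates 1, 2 and 5 (299, 204 and 355) lay below all controls, while control replicates 4 and 5 (1038 and 856) lay above all 4-HPAA livers. The means were 633 ± 254 and 429 ± 179 (SD, n = 6 each). The log2 difference, 4-HPAA minus control, was −0.58 ± 0.30 (SE; limma, unadjusted p = 0.0759, adjusted p = 0.391).

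H2-Ab1 had the same order of livers within each group. Its lowest, median and highest values were 302, 387 and 701 in controls and 133, 336 and 556 with 4-HPAA. Control replicates 4 and 5 (701 and 618) were again the highest of their group and 4-HPAA replicate 2 (133) the lowest of all 12, with overlapping groups. The difference was −0.50 ± 0.33 (SE; limma, adjusted p = 0.507), and −0.26 without 4-HPAA replicate 2.

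H2-Eb1 encodes the beta chain of the other class II molecule, I-E. C57BL/6 mice carry a defective gene for the I-E alpha chain and show no I-E on their cells, although the beta chain gene is transcribed. H2-Eb1 lay between 249 and 804 (median 401) in controls and between 160 and 542 (median 303.5) with 4-HPAA. The groups overlapped, and the difference was −0.53 ± 0.33 (SE; limma, adjusted p = 0.478), and −0.34 without control replicate 4. Cd74, the invariant chain that holds the peptide groove of new class II molecules closed, lay between 669 and 1692 (median 887.5) in controls and between 374 and 1110 (median 788.5) with 4-HPAA. Its groups overlapped too, and its difference was −0.45 ± 0.29 (SE; limma, adjusted p = 0.488), with −0.26 without 4-HPAA replicate 2 and −0.29 without control replicate 4. The location of each gene on GRCm38 (GENCODE M21) is chr17:34282744-34287823 for H2-Aa, chr17:34257689-34269419 for H2-Ab1 and chr17:34305867-34316674 for H2-Eb1, all in the MHC on chromosome 17.

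**Figure D1:**
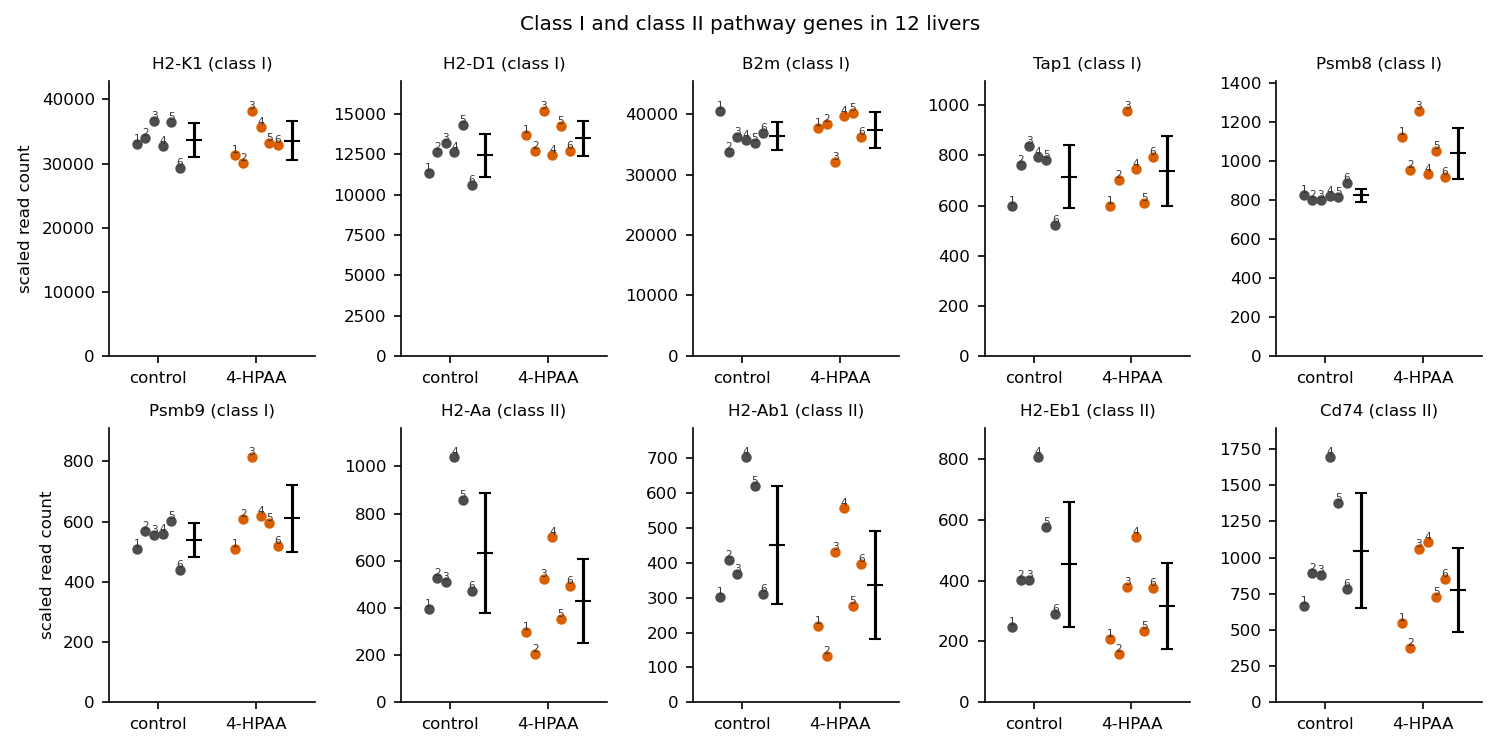
Scaled read counts of the 10 genes in each of the 12 livers, with 1 panel per gene and the axis starting at 0. Grey points are control and orange points 4-HPAA livers, numbered by replicate, and the bar beside each group is the mean ± SD (n = 6). Psmb8 is the gene whose groups do not overlap, and the class II panels share the same high and low livers.

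The class I heavy chains differed little between groups. H2-K1 (chr17:33996017-34000347) lay between 29308 and 36588 (median 33475.5) in controls and between 30113 and 38210 (median 33084) with 4-HPAA. The ranges nearly coincided, and the difference of −0.0042 ± 0.080 (SE; limma, adjusted p = 0.987) had no stable sign, as it turned positive in 5 of the 12 fits that left out 1 library. H2-D1 (chr17:35262730-35267499) lay between 10568 and 14324 (median 12651.5) and between 12459 and 15192 (median 13199.5), with a difference of 0.12 ± 0.084 (SE; limma, adjusted p = 0.541) and of 0.073 without control replicate 6. B2m (chr2:122147686-122153083) lay between 33761 and 40539 (median 35940.0) and between 32166 and 40149 (median 38045). Its difference was 0.037 ± 0.073 (SE; limma, adjusted p = 0.856), and it took the opposite sign, −0.046, after quantile normalization.

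Tap1 (chr17:34187553-34197225) is a subunit of the pump that carries peptides into the endoplasmic reticulum, where class I molecules are loaded. It lay between 522 and 836 (median 772.5) in controls and between 600 and 978 (median 724.5) with 4-HPAA. The groups overlapped throughout, with the lowest value in control replicate 6 and the highest in 4-HPAA replicate 3. The difference was 0.045 ± 0.14 (SE; limma, adjusted p = 0.913) and became −0.040 without 4-HPAA replicate 3.

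Psmb8 and Psmb9 encode catalytic subunits of the immunoproteasome, a form of the proteasome that cuts peptides suited to class I. Psmb8 (chr17:34197721-34201454) was the gene whose groups did not overlap. It read 825, 799, 800, 820, 817 and 890 in control replicates 1 to 6 and 1122, 957, 1258, 933, 1051 and 921 in 4-HPAA replicates 1 to 6. Thus each 4-HPAA liver lay above each control liver, with control replicate 6 and 4-HPAA replicate 6 closest. The means were 825 ± 33.5 and 1040.3 ± 132 (SD, n = 6 each), and the difference was 0.33 ± 0.082 (SE), a 1.25-fold ratio. It did not pass over all genes (limma, unadjusted p = 0.00136, adjusted p = 0.145). It passed with array weights (adjusted p = 0.0468; the 23 alternatives gave 0.0468 to 0.315), and without 4-HPAA replicate 3 the difference was 0.27 (adjusted p = 0.131).

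Psmb9 (chr17:34181987-34187764) lay between 441 and 603 (median 556) in controls and between 509 and 813 (median 600.5) with 4-HPAA. The groups overlapped, and 4-HPAA replicate 3 at 813 stood above the others, the next being replicate 4 at 620. The difference was 0.17 ± 0.11 (SE; limma, adjusted p = 0.515) and 0.083 without replicate 3. In the annotation, Psmb8 and H2-Eb1 each have an overlapping antisense gene, Patl2 lies opposite B2m, and Tap1 and Psmb9 overlap by 212 bases, so without a stated strand setting their reads cannot be fully told apart.

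Among the 10 genes, 0 passed an adjusted p of 0.05 (limma), as for all genes (0%). 1 of the 10, Psmb8, had an unadjusted p under 0.05, against 14.8% of all genes tested (7.26% higher and 7.56% lower in 4-HPAA). Non-overlapping groups were found in 1 of the 10, against 0.66% of all genes (0.307% higher and 0.354% lower). The share with an unadjusted p under 0.05 is near that of all genes.

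Class I and class II genes took different average directions. All 4 class II genes had negative differences, with a median of −0.51, and 5 of the 6 class I genes had positive ones, with a median of 0.082. The largest class I differences were those of Psmb8 (0.33) and Psmb9 (0.17). Those of H2-K1 (−0.0042), B2m (0.037) and Tap1 (0.045) were smaller than their SEs. The 14 tested genes listed as other class I heavy chains had 9 negative and 5 positive differences, with a median of −0.088. Of all genes, 50.2% had a lower and 49.8% a higher mean in 4-HPAA, and the median difference was −0.00092. To set both routes side by side in each liver, the log2 value of each gene minus its control mean was averaged over the genes of a class. These class levels are descriptions, and no test was applied to them.

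The class II level read −0.60, −0.11, −0.17, 0.81, 0.49 and −0.42 in control replicates 1 to 6. It read −0.96, −1.50, −0.058, 0.29, −0.66 and −0.19 in 4-HPAA replicates 1 to 6. In words, 4-HPAA replicates 1, 2 and 5 lay below all controls, 4-HPAA replicates 3, 4 and 6 lay within the control range, and the controls themselves were divided between replicates 4 and 5 above the mean and the other 4 below it. The livers at both ends are those at the ends of the first principal component of all genes, and the part of that wider difference in the class II levels was not tested. The class I level read −0.051, 0.015, 0.076, 0.030, 0.099 and −0.17 in controls and 0.038, 0.058, 0.33, 0.11, 0.10 and 0.048 with 4-HPAA.

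All 6 4-HPAA livers thus lay above the control mean for class I and 5 of 6 below it for class II. The class I level includes Psmb8, whose groups did not overlap, and a level without Psmb8 was not computed. In 4-HPAA replicate 1, H2-K1 (31287), Tap1 (600) and Psmb9 (509) lay below their control means (33675, 716 and 539). In the same liver Psmb8 (1122), H2-D1 (13684) and B2m (37700) lay above theirs (825, 12453 and 36401.5). The class I count is thus not a shift shared by every gene. The group difference was 0.12 for class I (SD 0.097 in controls and 0.11 with 4-HPAA) and −0.51 for class II (SD 0.54 and 0.66). For class I, the difference was 0.072 without 4-HPAA replicate 3 and the control SD 0.058 without control replicate 6. Class II minus class I differed by −0.63 between groups, with SDs of 0.49 and 0.61. That value ranged from −0.79 to −0.44 when 1 library was left out, and the ranges of the groups overlapped (−0.55 to 0.78 in controls and −1.56 to 0.17 with 4-HPAA). Class II alone ranged from −0.67 (without 4-HPAA replicate 4) to −0.32 (without 4-HPAA replicate 2), so leaving out 4-HPAA replicate 2 moved it by more than 1.5 times.

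**Figure D2:**
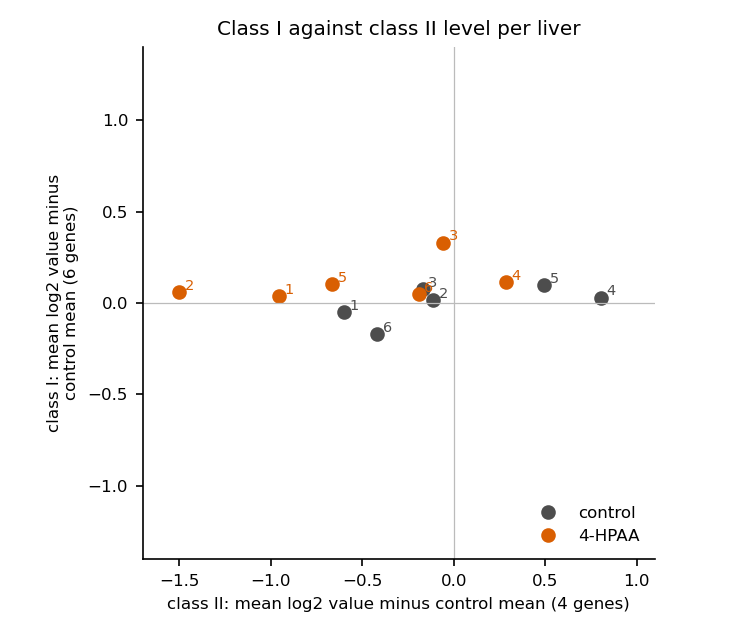
Each point is a liver, placed by its class II level (horizontal) and class I level (vertical), both as the mean log2 value minus the control mean, on equal scales. Class II levels run from −1.50 to 0.81 and class I levels from −0.17 to 0.33, so the livers spread along the class II axis.

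The spread between livers differed widely between the classes. Within controls, the SD of the log2 values was 0.54 for H2-Aa, 0.51 for H2-Ab1, 0.62 for H2-Eb1 and 0.51 for Cd74. Within the same 6 livers it was 0.12 for H2-K1, 0.16 for H2-D1, 0.089 for B2m, 0.16 for Psmb9 and 0.27 for Tap1. Psmb8 had the smallest, at 0.057. In fold terms, the highest control liver exceeded the lowest 3.23-fold for H2-Eb1, 2.63-fold for H2-Aa and 1.11-fold for Psmb8.

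The median SD over all genes was 0.18 within controls and 0.25 within 4-HPAA livers. All 4 class II genes had a control SD of at least 0.5, against 9.25% of all genes, and lay at the 91.3 to 94.7 percentile of all genes tested. Psmb8 lay at the 2.55 percentile and B2m at the 11.5 percentile. The count of class II genes is 4 readings of closely shared variation, as the pairwise values below show, and not 4 independent ones.

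The large class II spread was not a property of the controls alone. Within 4-HPAA livers the SDs were 0.64 for H2-Aa, 0.75 for H2-Ab1, 0.66 for H2-Eb1 and 0.60 for Cd74, each above its control value. The control SD exceeded the 4-HPAA SD in 2 of the 10 genes, H2-D1 and Tap1, against 31.1% of all genes. Psmb8 was tighter in controls (0.057) than with 4-HPAA (0.18). Its spread differed with an unadjusted p of 0.0287 and an adjusted p of 0.869 (limma on absolute deviations from the group median). For that test, 0 genes passed an adjusted p of 0.05, and 4.48% had an unadjusted p under 0.05. The test also made no call on simulated data with a much larger spread in a group, so the 0 says nothing about equal spread.

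**Figure D3:**
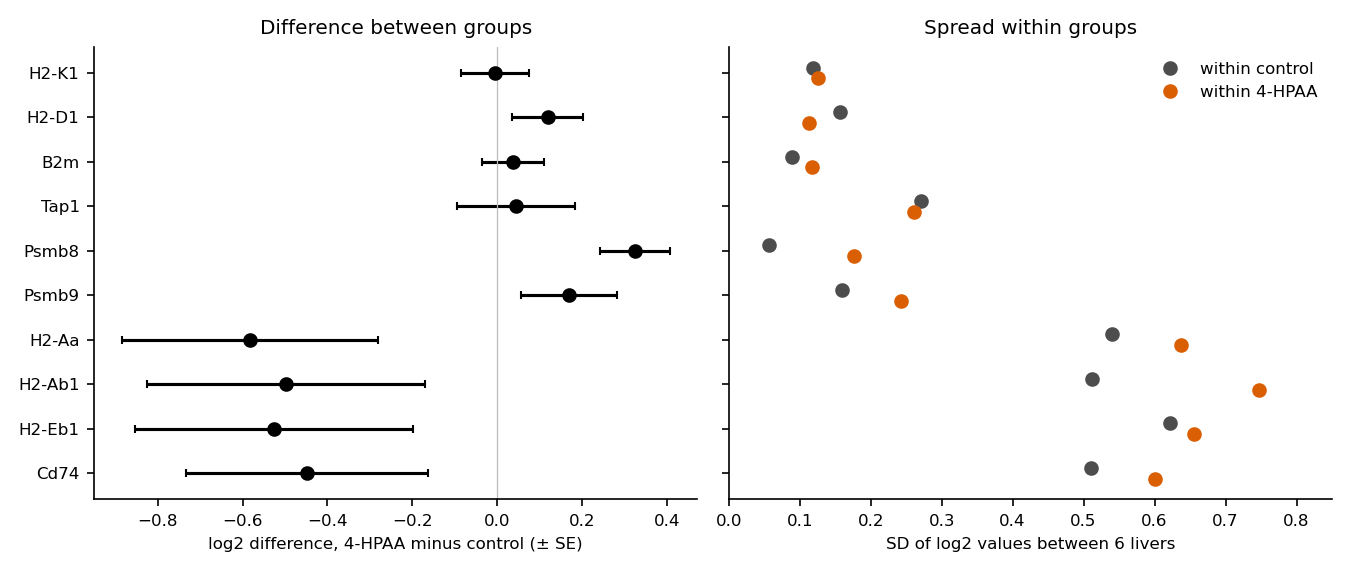
Left, the log2 difference of each gene, 4-HPAA minus control, with its SE from limma. Right, the SD of the log2 values between the 6 livers of each group, grey for control and orange for 4-HPAA. The class II genes lie at 0.51 or above in both groups and every class I gene lies at 0.27 or below.

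The 4 class II genes varied as a unit. After subtraction of the group means, Pearson's r over the 12 livers lay between 0.96 and 0.99 in the 6 pairs of class II genes, given here as a description without a test, since the livers share depth and scaling. The ratio of H2-Aa to H2-Ab1 stayed between 1.21 and 1.53 in all 12 livers, and that of H2-Aa to Cd74 between 0.488 and 0.632. Over the same livers H2-Aa itself ran from 204 to 1038. The SD of the log2 ratio was 0.11 to 0.18 in the class II pairs.

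Class I genes did not vary as a unit. Within-group r in their 15 pairs ran from −0.72 to 0.78, with a median of 0.30. H2-K1 and H2-D1 (r = 0.71), Tap1 and Psmb9 (0.78) and H2-K1 and Tap1 (0.78) were high together. B2m ran opposite to Tap1 (−0.72), with its lowest value, 32166, in the liver where Tap1 was highest, 4-HPAA replicate 3. Over both groups, Psmb8 had a within-group r of −0.016 with Tap1 and of 0.12 with H2-K1. These values join opposite signs. In controls alone, Psmb8 had an r of −0.87 with Tap1, −0.86 with H2-K1, −0.75 with H2-D1 and −0.87 with Psmb9. In 4-HPAA livers alone, these were 0.27, 0.44, 0.94 and 0.57. With B2m the signs were reversed, at 0.34 and −0.65. Psmb8 varied little among controls, where a liver at 890 stood above the others at 799 to 825. The control values without that liver were not computed. In the 24 pairs of a class I with a class II gene, r ran from −0.41 to 0.65, with a median of 0.41.

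The standard proteasome subunits help to read Psmb8, since immunoproteasome subunits replace them one for one: Psmb8 replaces Psmb5, Psmb9 replaces Psmb6 and Psmb10 replaces Psmb7. These 3 ratios were chosen after the values were seen and are given without a test. The ratio of Psmb8 to Psmb5 was 0.657, 0.557, 0.618, 0.559, 0.623 and 0.669 in controls and 0.978, 0.941, 0.637, 0.699, 0.797 and 0.745 in 4-HPAA livers. Of the 6 4-HPAA livers, 5 lay above every control.

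The exception was 4-HPAA replicate 3, whose Psmb8 of 1258 came with a Psmb5 of 1974 and a Psmb6 of 4497, both the highest of all 12 livers. Mean Psmb8 to Psmb5 ratios were 0.614 ± 0.047 and 0.800 ± 0.14 (SD, n = 6 each). The ratio of Psmb9 to Psmb6 was 0.168 ± 0.024 and 0.181 ± 0.013, and that of Psmb10 to Psmb7 was 0.788 ± 0.091 and 0.727 ± 0.041 (SD, n = 6 each), with overlapping groups in both. Psmb5, Psmb6 and Psmb10 had limma differences of −0.042 ± 0.13, 0.050 ± 0.098 and 0.058 ± 0.075 (SE), and Psmb7 of 0.17 ± 0.077 (SE; unadjusted p = 0.0435, adjusted p = 0.323). Without 4-HPAA replicate 3, Psmb6 read −0.036.

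**Figure D4:**
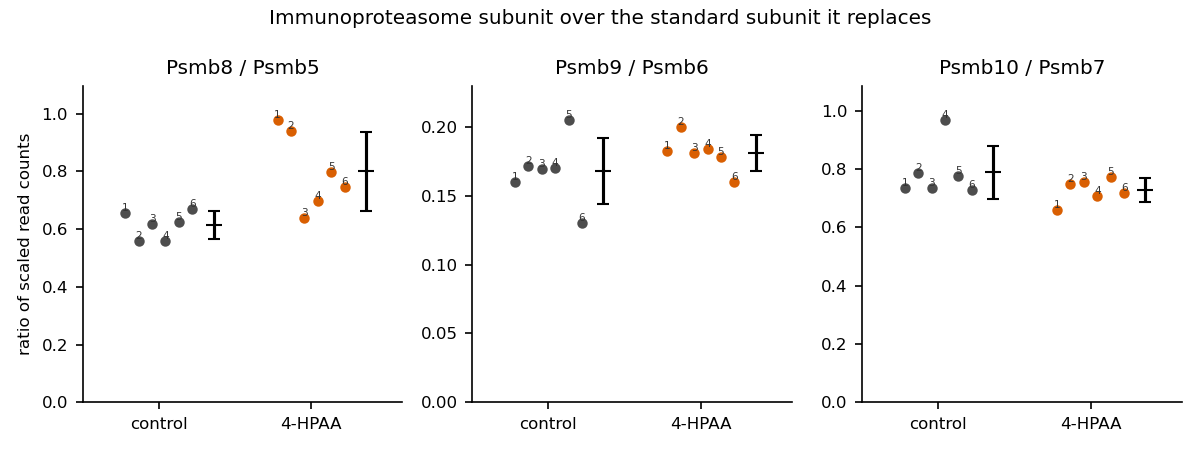
Ratio of scaled read counts of each immunoproteasome subunit to the standard subunit it replaces, with 1 point per liver numbered by replicate, and the mean ± SD (n = 6) beside each group. In the Psmb8 panel, 5 of 6 orange points lie above all grey points, and in the other panels the groups overlap.

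Genes that load class I molecules and supply their peptides had differences of both signs. In the list of 16 (Tap2, tapasin and others), all 16 were tested, and 11 had positive and 5 negative differences, with a median of 0.069. At an unadjusted p under 0.05 there were 2 higher and 2 lower genes, against 14.8% of all genes, and 0 passed over all genes (limma). The 2 on the higher side are chaperones of the endoplasmic reticulum that also fold many other proteins: Calr, calreticulin, at 0.45 ± 0.13 (SE; adjusted p = 0.183, and 0.0423 without 4-HPAA replicate 4) and Pdia3 at 0.33 ± 0.13 (SE; adjusted p = 0.270). On the lower side were Mr1, which presents vitamin B2 metabolites, at −0.45 ± 0.17 and Ube2l6, an enzyme of ISG15 conjugation, at −0.20 ± 0.073 (SE; limma, adjusted p = 0.256 and 0.236).

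Of 20 genes listed as other class I heavy chains, 14 were tested, with 9 negative and 5 positive differences and a median of −0.088. At an unadjusted p under 0.05 were 1 higher and 1 lower gene, against 14.8% of all genes, and 0 passed over all genes (limma). H2-Q7, a gene of the non-classical Qa-2 molecule, read 1205 to 1752 in controls and 1823 to 2252 with 4-HPAA, so its groups, like those of Psmb8, did not overlap (0.66% of all genes). Its difference was 0.42 ± 0.091 (SE; limma, unadjusted p = 0.000376, adjusted p = 0.123), and it passed with array weights (adjusted p = 0.0404, within 0.0404 to 0.287 over 23 alternatives). H2-Q1 had the opposite sign, with 144, 216, 452, 539, 803 and 128 in controls against 126, 47, 90, 277, 94 and 131 with 4-HPAA, a difference of −1.45 ± 0.49 (SE; limma, adjusted p = 0.214).

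H2-Q10, a secreted class I molecule that the liver makes in quantity, lay between 66398 and 81301 in controls and between 60932 and 75615 with 4-HPAA, with overlapping groups (−0.16 ± 0.080, SE; limma, adjusted p = 0.367). H2-Ke6, at −0.12 ± 0.094 (SE; limma, adjusted p = 0.602), stood in this list for its name, but it encodes a steroid dehydrogenase. The H2-Q genes are near-identical copies, so the values of each depend on how the authors' counting dealt with shared reads.

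The list of class II loading and lysosomal processing genes had differences of both signs. Of 18 listed genes 12 were tested, with 8 negative and 4 positive differences, a median of −0.17, 1 higher and 0 lower at an unadjusted p under 0.05 (14.8% of all genes), and 0 over all genes (limma). H2-DMa and H2-DMb1 form the molecule that exchanges the remnant of the invariant chain for a peptide. H2-DMb1 lay between 38 and 71 in controls and between 16 and 64 with 4-HPAA (−0.44 ± 0.30, SE), and H2-DMa between 36 and 118 and between 35 and 77 (−0.23 ± 0.29, SE). Without 4-HPAA replicate 2 these became −0.21 and −0.11, and without control replicate 4 H2-DMa became −0.057. Both were high in control replicates 4 and 5 and lowest in 4-HPAA replicates 1 and 2, as the class II genes were. H2-Ob, a chain of the DM inhibitor, read −0.58 ± 0.43 (SE) at values of 3 to 33, the highest in control replicate 6. The cathepsin genes Ctsl and Ctsd, lysosomal proteases of most cells, read 0.21 ± 0.084 (SE; limma, unadjusted p = 0.0268, adjusted p = 0.273) and −0.17 ± 0.081 (SE; adjusted p = 0.359).

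The transcriptional regulators of each class had average differences of opposite sign, and neither passed over all genes. Ciita is the master transactivator of class II genes, and Nlrc5 does the same for class I. Ciita lay between 19 and 50 in controls and between 16 and 34 with 4-HPAA, with overlapping groups (−0.35 ± 0.25, SE; limma, adjusted p = 0.554). Nlrc5 read 671 to 894 in controls and 804 to 1247 with 4-HPAA, and 4-HPAA replicates 2, 5 and 6 (1047, 1247 and 933) lay above all controls. Its difference was 0.34 ± 0.11 (SE; limma, unadjusted p = 0.00889, adjusted p = 0.206), with a range of 0.26 to 0.39 when 1 library was left out.

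Over 14 genes of transcriptional control, all tested, 8 had positive and 6 negative differences, with a median of 0.025, 1 higher and 0 lower at an unadjusted p under 0.05 (14.8% of all genes), and 0 over all genes (limma). The repressor Bcl6 varied widely (344 to 1465 in controls and 507 to 2104 with 4-HPAA, 0.84 ± 0.47, SE), while Irf2 (0.16 ± 0.10) and the class II promoter factor Rfxank (0.18 ± 0.13) had smaller differences (SE).

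Interferon gamma is the classical inducer of both routes, and its signalling genes had differences of both signs. Irf1, a gene it induces and an activator of Tap1 and Psmb9, lay between 644 and 858 in controls and between 638 and 1357 with 4-HPAA, the highest value again in 4-HPAA replicate 3 (0.15 ± 0.15, SE; limma, adjusted p = 0.693, 0.013 without that library and −0.0045 with array weights). Of 7 listed signalling genes 6 were tested, with 3 differences on each side, a median of −0.010 and 0 over all genes (limma). The 1 with an unadjusted p under 0.05 (14.8% of all genes) was Socs3, a feedback inhibitor, at 1.11 ± 0.37 (SE; unadjusted p = 0.0102, adjusted p = 0.206). The kinase gene Jak1 read 0.16 ± 0.083 and the receptor chains Ifngr1 and Ifngr2 read −0.15 ± 0.11 and −0.23 ± 0.13 (SE).

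Class II transcripts come from few liver cells, so the markers of those cells are set beside them. In whole liver, fewer cells of a type and less RNA per cell cannot be told apart. Of 10 B cell markers 6 were in the table, all 6 with negative differences (median −0.50) and 0 past an adjusted or unadjusted p of 0.05 (limma). Their summed level ran from 73 to 229 in controls and from 76 to 124 with 4-HPAA. The defining marker Cd79a, part of the B cell receptor, read 9 to 34 and 6 to 14 (−0.61 ± 0.32, SE), with its highest value in control replicate 4, and Ms4a1 was not analysed here.

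Of 10 dendritic cell markers 9 were in the table, with summed levels of 2763 to 3753 and 2775 to 4187, and 8 were tested, 7 of them negative (median −0.12). The defining markers Flt3 and Zbtb46 differed: Flt3, a growth factor receptor of dendritic cell precursors, read 9 to 15 in controls and 3 to 11 with 4-HPAA (−0.91 ± 0.29, SE; limma, unadjusted p = 0.00722, adjusted p = 0.200), and Zbtb46 read 153 to 212 and 158 to 232 (−0.035 ± 0.12, SE, and 0.0056 after quantile normalization). 2 dendritic cell markers were lower at an unadjusted p under 0.05 (7.56% of all genes), and 0 passed over all genes (limma). Flt3 is among them, with 9, 13, 10, 14, 11 and 15 in controls and 3, 6, 9, 11, 5 and 4 with 4-HPAA. It thus met the limit for testing almost only through the controls, where it was higher. Its p is therefore not support for a difference.

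Macrophage markers shared some of the high livers of class II and not others. All 12 Kupffer cell and macrophage markers were measured, 8 negative and 4 positive (median −0.037, 0 at an unadjusted p under 0.05, limma), with summed levels of 3779 to 12579 in controls and 5371 to 9094 with 4-HPAA. Control replicates 4 and 5 were high in both, with an Adgre1 of 204 and 253. Control replicate 6 was the highest liver for Adgre1 (462), Csf1r (1002) and the leukocyte marker Ptprc (354). The H2-Aa value of that liver, 472, lay below the control median. 4-HPAA replicate 5 had the highest Clec4f of its group, 1665, with an H2-Aa of 355. The mean level of the 12 markers was 1.14 above the control mean in control replicate 6, where the class II level was −0.42.

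Of 9 markers of monocytes and recruited macrophages 8 were in the table, with summed levels of 1610 to 3406 and 1628 to 2560. Among the 7 tested, 6 were negative (median −0.34), 2 of them at an unadjusted p under 0.05 (7.56% of all genes), and 0 passed over all genes (limma). Ccr2, the chemokine receptor of recruited monocytes, read 26 to 78 in controls and 11 to 58 with 4-HPAA (−0.80 ± 0.36, SE; adjusted p = 0.325). Its highest values were in control replicates 5 and 4 (78 and 52) and 4-HPAA replicate 4 (58), livers that were also high in class II. Its lowest value, 11, was in 4-HPAA replicate 3, where H2-Aa was 521, above the 4-HPAA median of 424.5. Of 11 T and NK cell markers 5 were in the table, with Cd3e at 2 to 17 and summed levels of 41 to 103 in controls and 99 to 199 with 4-HPAA. Only Cd4 and Ccl5 were tested, at 1.69 ± 0.41 (SE; limma, unadjusted p = 0.00102, adjusted p = 0.142) and −0.76 ± 0.57 (SE), with a median of 0.46. Cd4, Ccl5 and Pecam1 (below) are named after their values were seen. The part of any of these cells in the class II difference was not tested.

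Of 5 hepatocyte markers, 3 had negative and 2 positive differences (median −0.059), with 1 lower and 2 higher at an unadjusted p under 0.05 (14.8% of all genes). Alb differed by −0.38 ± 0.098 (SE; limma, adjusted p = 0.148). With 1 library left out, its limma adjusted p ran from 0.0310, without 4-HPAA replicate 4, to 0.324. Of 5 endothelial markers, 4 had negative differences (median −0.23), 1 of them, Pecam1 at −0.31 ± 0.12 (SE; limma, adjusted p = 0.242), at an unadjusted p under 0.05 (7.56% of all genes). Stab2, a marker of sinusoidal endothelium, differed by −0.014 ± 0.089 (SE), without a stable sign.

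**Figure D5:**
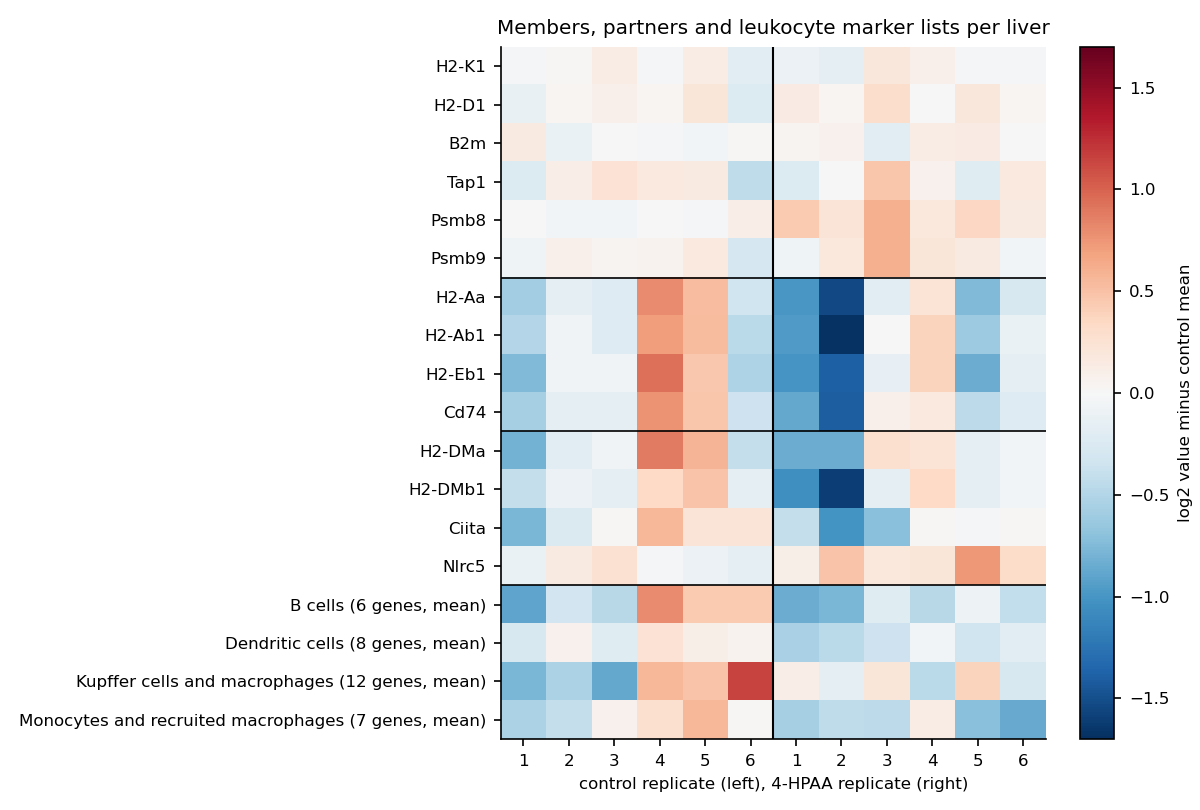
Log2 value minus the control mean in each liver, red for higher and blue for lower, for the 10 genes, for 4 partners and regulators, and for the mean of the tested genes in 4 marker lists. The class II rows with H2-DMa and H2-DMb1 share a column pattern, high in control replicates 4 and 5 and low in 4-HPAA replicates 1 and 2, and the Kupffer cell and macrophage row is highest in control replicate 6.

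The genes most like class II over the 12 livers, by Pearson's r with the mean z-score of the 4 genes, were Angptl6 (0.93), H2-DMb1 (0.93), Rcn3 (0.93), H2-DMa (0.92) and Col16a1 (0.91), so 2 of the 5 are themselves class II loading genes. Angptl6, a secreted protein of the angiopoietin-like family, read 266 and 205 in control replicates 4 and 5 and 121 and 83 in 4-HPAA replicates 1 and 2. Rcn3, a calcium-binding protein of the secretory pathway, differed by −0.49 ± 0.18 and Col16a1, a collagen, by −0.53 ± 0.22 (SE; limma, adjusted p = 0.226 and 0.290). The genes most like class I were Tmem8 (0.93), Snx15 (0.92), Llgl2 (0.91), Gpr107 (0.91) and Rnf10 (0.91), none of them of the MHC. For Tmem8, Snx15, Llgl2, Gpr107 and Rnf10, the highest value of all 12 livers was in 4-HPAA replicate 3 (1078, 421, 882, 683 and 3876). These correlations are descriptions over 12 livers in 2 groups that share depth and scaling.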

How the data were processed

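Per the labels' protocols, strand-marking TruSeq libraries of liver mRNA from 12 mice were read on a NovaSeq instrument. Among the tools in the submitters' processing notes are STAR, HTSeq, cutadapt, edgeR, DESeq2 1.28.1 and FastQC 0.11.9, with GRCm38 as build. No source used here gives their order, the annotation release or the strand setting. The deposited values are a score: whole numbers that are not raw counts, as 5 libraries lack some whole numbers between 3 and 45, and the size factors by median of ratios range from 1.003 to 1.009. They were read as the authors' read counts scaled by a factor for each library and rounded. The smallest value is 2. Depth before scaling is unknown, and counting error is large for genes near 10.

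GENCODE M21 named 13203 of 13267 IDs. For 5197 of 12764 protein-coding genes the ID is a transcript of non-coding type, so IDs were taken as names of genes, not of isoforms. Values were compared with limma 3.58.1 in R 4.3.3 (trend, robust) on log2(value + 1), for the 12720 genes at 10 or more in 6 or more libraries, which understates changes of low genes. Adjusted p-values are Benjamini-Hochberg over all genes. Spread was compared by limma on absolute deviations from group medians. Both tests were checked on simulated data, where the spread test made no call even for a much larger spread in a group, so a miss there says nothing. Within-group pairs of libraries had a mean chi-square per gene of at least 18.6. This figure treats the scaled values as raw counts and can be led by a few high genes. It therefore does not measure sampling noise.

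The 10 genes, lists and rules were chosen with earlier results of these data known. Named are all 10 genes, up to 4 genes of smallest p per pathway list, Ciita, Nlrc5, Irf1, the defining markers and the 5 genes most like each class. Python 3.11.15 and matplotlib 3.10.9 made the figures. From the list of transcriptional control, 1 gene is not reported here and was left out of its counts. The alternatives for raw counts were not run.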

Additional observations from a re-analysis of the deposited data

Results flagged for a closer look

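In 26 sets of 6 livers (each gene and class level in each group), the gap between the most extreme liver and its neighbour was compared with the range, and 2 exceeded the 95% limit for 6 samples (0.625). Chance gives about 1 in 20. Psmb8 in control replicate 6, at 890, stood above the other 5 controls at 799 to 825. The class I level of 4-HPAA replicate 3, at 0.33, stood above the other 5 4-HPAA livers at 0.038 to 0.11. That library also lay apart over all genes on the second principal component, and the class I difference between groups was 0.072 without it and 0.12 with it.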

How the results depend on the processing

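The alternatives were other pseudocounts, filters, scalings and tests, array weights, a replicate block and each library left out (23 for most genes). The number of genes passing over all genes was 0 in the reported fit, 139 with array weights, 11 with the replicate block and 0 to 193 with 1 library left out, the highest without 4-HPAA replicate 4, with 5 without control replicate 1. No class II gene passed in any of these. The labels do not say that replicate numbers pair the mice. Deviations of same-numbered livers correlated at −0.18 to 0.28. As these were not above 0.1 in every pair, the block was not used for the reported values. Yet 3 of 6 controls correlated best with their own number, more than unrelated numbers would give on average. Whether the numbers mark pairs was not tested. The spread test called 0 genes in each alternative, which says nothing, as it made no call on simulated data either. Signs turned for differences near 0. With array weights these were Tap1 (−0.078), Psmb6 (−0.026), Irf1 (−0.0045) and Csf1r (0.043), and after quantile normalization B2m (−0.046) and Zbtb46 (0.0056). With 1 library left out, the differences ranged from −0.043 to 0.026 for H2-K1, −0.042 to 0.10 for Tap1, −0.036 to 0.10 for Psmb6, −0.16 to 0.031 for Psmb5, −0.12 to 0.017 for Zbtb46, −0.012 to 0.30 for Clec4f, −0.22 to 0.090 for Csf1r and −0.061 to 0.047 for Stab2. Causes were not tested. The scalings moved the median of all genes by −0.0087 to 0.0028 on the log2 scale. The DESeq2 alternative was not run, since the values are scaled.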
